A study of Caenorhabditis elegans with 40 samples.

Results

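The 319 members described here are summits of HSF-1 chromatin immunoprecipitation signal at protein-coding promoters of Caenorhabditis elegans. A summit is the base of highest signal in a peak, and the deposited lists hold 500 summits common to the control animals at 20 °C and 441 after heat shock. A summit was taken as a promoter summit when it lay within 1000 bp of the annotated 5' end of any protein-coding transcript, whatever its signal or class. This gave 190 of 500 summits at 20 °C (38.0%, exact 95% interval 33.7 to 42.4) and 129 of 441 after heat shock (29.3%, 25.0 to 33.7), which leaves 310 and 312 other summits. Summits of the 2 lists within 100 bp of each other were taken as the same site, and 100 sites had a promoter summit at both temperatures. The 319 promoter summits thus stand for 219 distinct sites.

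The study removed HSF-1 from the soma or from the germline of young adult worms and mapped where HSF-1 and RNA polymerase II bound DNA. All animals carried hsf-1::aid::gfp on chromosome I, an HSF-1 fused to GFP and to a degron that auxin and the plant protein TIR1 together send to the proteasome, so that the controls also carried the tagged protein. In strain JTL611 the transgene ieSi57 on chromosome II, with unc-119(ed3) III, made TIR1::mRuby from the eft-3 promoter with an unc-54 3'UTR for depletion in somatic tissues. In strain JTL621 ieSi38 on chromosome IV, with the same unc-119(ed3) background, made TIR1::mRuby from the sun-1 promoter for depletion in the germline, and both transgenes carried Cbr-unc-119(+). Worms of each strain took ethanol (control) or auxin for 2 h and were kept at 20 °C or heat-shocked at 34 °C for 30 min. Each of these 8 combinations had 2 HSF-1 libraries, pulled down with anti-GFP, among 40 samples that also held 16 libraries of RNA polymerase II and 8 inputs. The summit lists come from the ethanol controls, while 6 class sheets sort the summits by whether HSF-1 signal was lost with soma depletion (soma class), with germline depletion (germline class) or with both (shared class). The peak names in the lists and sheets begin with JTL611, the strain of soma depletion. No value per library is in these files, so depth and the spread between replicate libraries are unknown.

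HSF-1 is the conserved heat shock transcription factor, which binds arrays of inverted nGAAn repeats called heat shock elements as a trimer. On acute heat it drives genes of molecular chaperones, proteins that help others to fold, and in worms it also acts without stress in development and in the germline. Worm genes are often packed closely, and neighbouring genes that point away from each other can share a stretch of promoter between their 5' ends. Many annotated 5' ends in C. elegans are trans-splice sites rather than transcription starts, so distances here are distances to the annotation.

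At 20 °C the promoter summits lay at a median of 284 bp from the nearest annotated 5' end, and 99 of the 190 lay within 300 bp. After heat shock the median was 379 bp, with 54 of 129 within 300 bp. The upstream side held 147 of 190 summits (77.4%) at 20 °C and 98 of 129 (76.0%) after heat shock, and this difference did not pass Fisher's exact test over summits (adjusted exact p = 1). Because 100 sites stand in both lists, the lists compared are not independent. Upstream lay 79 of 100 sites seen at both temperatures, 68 of 90 at 20 °C only and 21 of 28 after heat shock only. No pair of these groups passed the test. Most summits lay between genes, 126 at 20 °C and 82 after heat shock. Introns held 48 and 39 of them, of which 37 and 31 were introns of the nearest gene, and 5' UTRs held 12 and 6. Coding exons and 3' UTRs together took 4 summits at 20 °C and 2 after heat shock.

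**Figure D1:**
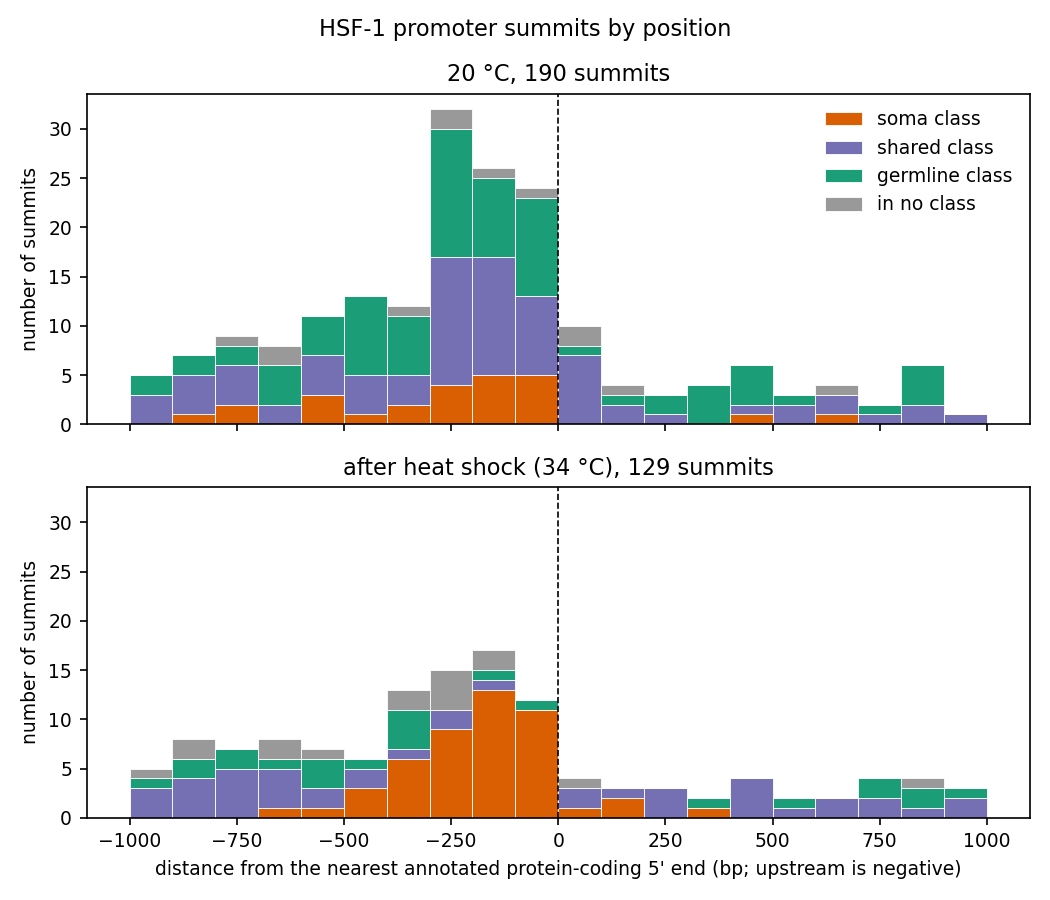
Number of promoter summits by signed distance to the nearest annotated 5' end in bp (negative is upstream), in bins of 100 bp, at 20 °C (190 summits) and after heat shock (129 summits), with colours for the classes. Summits crowd upstream of the 5' end at both temperatures, and after heat shock 33 of the 44 summits within 300 bp upstream are of the soma class.

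Just inside the 1000 bp limit stood the summit in W01A11.1 (998 bp, score 4213 at 20 °C and 995 bp, score 22453 after heat shock), the 20 °C summit of ZK1053.2 at 983 bp and the heat shock summit of Y39A1A.16 at 982 bp, all of the shared class. Just outside were the 20 °C summits near mtm-3 (1005 bp, score 111) and gcy-17 (1017 bp, score 120) and the heat shock summits near bath-34 (1013 bp, score 386) and jun-1 (1018 bp, score 195). The score is the authors' own value for each peak; what it is relative to was not given in the sources used here, so scores are read within a temperature and no change is read from a pair of them.

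A promoter site counted as divergent when it lay within 1000 bp of the 5' ends of 2 genes that point away from each other. Divergent promoters held 58 of 190 summits at 20 °C (30.5%) and 35 of 129 after heat shock (27.1%), a difference that did not pass Fisher's exact test (adjusted exact p = 0.88). The summit lay between the paired 5' ends in 51 of the 58 and 34 of the 35 cases. By site, 31 of 100 seen at both temperatures were divergent, 27 of 90 at 20 °C only and 4 of 28 after heat shock only. No pair of these groups passed the test. The span between paired 5' ends ranged from 148 to 1536 bp at 20 °C, with a median of 602 bp, and from 221 to 1536 bp after heat shock, with a median of 621 bp. For comparison, 4357 of 19985 protein-coding genes (21.8%) had such a neighbour for a point 274 bp upstream of their 5' end, the median upstream distance at 20 °C. At 337 bp, the median upstream distance after heat shock, the number was 4485 (22.4%).

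With divergent partners counted, 254 of the 19985 protein-coding genes (1.27%) had a promoter summit at 20 °C, 161 (0.806%) after heat shock and 282 (1.41%) at either temperature. At 20 °C 125 summits had 1 gene within that distance, 59 had 2 and 6 had more. After heat shock the numbers were 91, 37 and 1. Few promoter summits lay on chromosome X, 7 of 190 at 20 °C and 4 of 129 after heat shock, beside 38 of 310 and 41 of 312 other summits. On chromosome V the promoter summits numbered 48 and 50, beside 69 and 73 other summits.

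Promoter summits had lower scores than the other summits of their own list. The median score was 238 at promoters and 750 elsewhere at 20 °C, and 612 and 4378 after heat shock. At or above the median of the whole list were 63 of 190 promoter summits and 187 of 310 others at 20 °C (33.2% and 60.3%, background 50%, Fisher's exact test, adjusted exact p = 1.52e-08). After heat shock these were 42 of 129 and 179 of 312 (32.6% and 57.4%, background 50.1%, adjusted exact p = 5.31e-06). The highest promoter score, at pck-2, was 163945 at 20 °C and 257729 after heat shock, beside 234251 and 322070 for the highest of the other summits.

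Promoter summits were in the soma class more often than other summits, and the gap was wider after heat shock. In the soma class were 25 of 190 promoter summits and 22 of 310 others at 20 °C (13.2% and 7.10%, background over all summits 9.4%, adjusted exact p = 0.0412), and 48 of 129 and 16 of 312 after heat shock (37.2% and 5.13%, background 14.5%, adjusted exact p = 2.1e-15). The shared class held 76 promoter summits and 166 others at 20 °C (40.0% and 53.5%, background 48.4%, adjusted exact p = 0.00722), and 42 and 215 after heat shock (32.6% and 68.9%, background 58.3%, adjusted exact p = 1.48e-11). In the germline class the shares did not pass the test at either temperature, with 77 and 102 summits at 20 °C (40.5% and 32.9%, background 35.8%, adjusted exact p = 0.136) and 23 and 69 after heat shock (17.8% and 22.1%, background 20.9%, adjusted exact p = 0.441). Summits in no class were 12 and 20 at 20 °C (6.32% and 6.45%, background 6.4%, adjusted exact p = 1), and 16 and 12 after heat shock (12.4% and 3.85%, background 6.35%, adjusted exact p = 0.00387).

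These tests take summits as units and hold no replicate animals, and in whole worms fewer cells with bound HSF-1 and less HSF-1 per cell cannot be told apart. Among the summits at or above the median score, the 20 °C soma difference (1.57 percentage points), the 20 °C shared difference (0.204 points) and the heat shock difference in no class (0 points) no longer passed, while the heat shock soma and shared differences passed at 16.7 and -14.7 points. With limits of 250, 500 and 2000 bp the heat shock soma excess was 59.0, 53.3 and 19.4 points and passed each time; the 20 °C one (4.44, 5.51 and 3.57 points) did not pass, nor did the 20 °C shared difference at 250 and 2000 bp (-3.80 and -6.17 points) or the heat shock difference in no class at 250 and 500 bp (6.12 and 6.14 points), while the heat shock germline difference passed at 250 and 500 bp (-19.2 and -13.1 points).

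**Figure D2:**
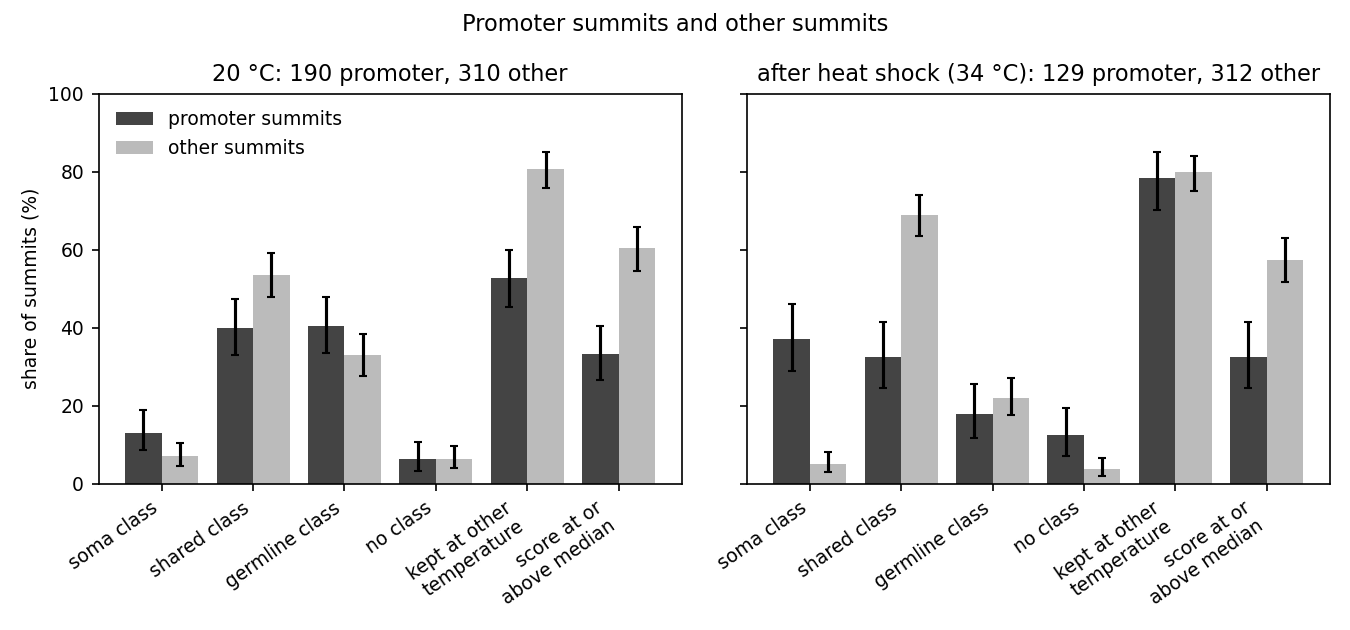
Percent of promoter summits and of other summits in each class, with a summit of the other temperature within 100 bp, and with a score at or above the median of all summits, at 20 °C (190 and 310 summits) and after heat shock (129 and 312 summits). Error bars are exact 95% binomial intervals over summits, and after heat shock promoter bars stand above the others in the soma class (37.2% and 5.13%) and below them in the shared class (32.6% and 68.9%).

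A heat shock summit lay within 100 bp of 100 of the 190 promoter summits at 20 °C but of 250 of the 310 others (52.6% and 80.6%, background 70%, adjusted exact p = 2.71e-10). In the other direction, 101 of 129 heat shock promoter summits and 249 of 312 others had a 20 °C summit (78.3% and 79.8%, background 79.4%, adjusted exact p = 0.868). Among summits at or above the median score the 20 °C difference was -0.501 points and did not pass. The 100 sites kept at both temperatures were placed closely, with a median shift of 8 bp, a largest shift of 67 bp and 95 within 50 bp. The additional heat shock summit, in F54F12.2, lay at 981 bp with a score of 9607, and its 20 °C partner lay beyond 1000 bp.

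The 90 promoter sites found at 20 °C only had scores of 28.3 to 929 with a median of 97.8, and 46 of them were of the germline class, 17 soma, 16 shared and 11 in no class. The 28 sites found after heat shock only had scores of 60.5 to 8821 with a median of 196, and 13 were germline, 9 soma, 2 shared and 4 in no class. Kept sites had a median score of 681 at 20 °C. Of the germline summits at 20 °C 31 of 77 were kept, of the soma summits 8 of 25, of the shared summits 60 of 76 and of those in no class 1 of 12. Small non-coding RNA genes lay within 300 bp of 11 of the 190 promoter summits at 20 °C, and of 7 of the 310 others. After heat shock it was 1 of 129 and 1 of 312. Of the 11 promoter summits 7 were in the germline class, which held 77 of the 190.

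Among the 100 kept sites the class itself moved toward the soma. The soma class took 8 sites at 20 °C and 39 after heat shock (32 entered and 1 left, exact McNemar test over sites, adjusted exact p = 3.17e-08). The shared class went from 60 to 39 (32 left and 11 entered, adjusted exact p = 0.00255), and the germline class from 31 to 10 (21 left and 0 entered, adjusted exact p = 1.91e-06). Sites in no class went from 1 to 12 (adjusted exact p = 0.00342). Over all common summits, unpaired, the soma class went from 9.4% to 14.5% and the shared class from 48.4% to 58.3%. The germline class went from 35.8% to 20.9% over all summits, which include those at promoters. It fell from 40.5% to 17.8% among promoter summits and from 32.9% to 22.1% among the others. Its promoter gap did not differ between temperatures past the threshold at 1000 bp (exact test of equal odds ratios, adjusted exact p = 0.0969). With limits of 250 and 500 bp that difference passed, at -17.6 and -22.3 points. Kept sites away from promoters were not tested in this way. With limits of 250, 500 and 2000 bp the soma gain was 59.0, 50.0 and 19.9 points and the shared loss -48.7, -40.3 and -13.7 points, all past the threshold. At 2000 bp the germline loss was -13.0 points and the gain in no class 6.83 points, and at 250 bp the latter (5.13 points) did not pass. Compared over all promoter summits without pairing of sites, the shared (-7.44 points) and no-class (6.09 points) changes did not pass. Of the 60 shared sites 27 became soma, 28 stayed shared and 5 were in no class. Of the 31 germline sites 10 stayed, 11 became shared, 4 became soma and 6 were in no class, while 7 of the 8 soma sites stayed and 1 was in no class. A site is called by whether it is listed, so a site that leaves the shared class may have lost a listing only, and how well the germline comparison could call sites after heat shock was not tested.

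**Figure D3:**
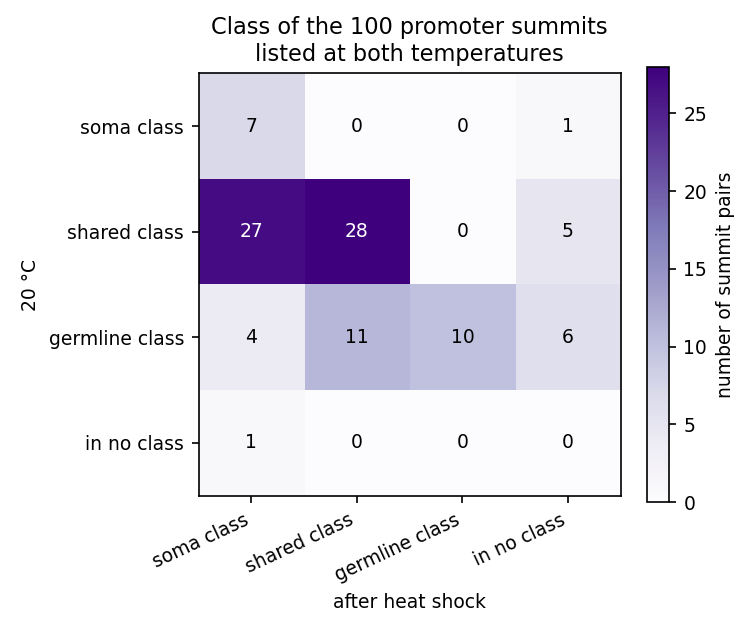
Class of the 100 promoter sites with a summit at both temperatures, with the class at 20 °C in rows, the class after heat shock in columns and the number of sites in each cell. The 27 sites that were shared at 20 °C and soma after heat shock and the 28 that stayed shared fill most of the shared row.

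Kept sites that left the shared class for the soma class also lay elsewhere than those that stayed. The 27 sites that went from shared to soma lay at a median of -169 bp (negative is upstream), from -576 to 98 bp; 26 lay within 500 bp of a 5' end, 25 upstream, and 17 at divergent promoters. The 28 sites that stayed shared lay at a median of -439.5 bp, from -983 to 998 bp, with 9 within 500 bp, 18 upstream and 3 divergent. Without regard to side, the median distance was 169 bp for the 27 sites and 665 bp for the 28. Those that stayed shared had higher 20 °C scores (median 2382 against 564), and their listed germline differential score exceeded the soma one in 27 of 28, against 17 of 27 for those that became soma. The differential score is the authors' -log[pvalue] of signal loss on depletion, and the base of its logarithm was not given in the sources used here. None of the 11 sites that went from germline to shared was divergent, and 5 lay within 500 bp. No test was made of these position values by direction of movement, because the groups rest on both temperatures' classes.

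Tested within a temperature, the classes differed in place after heat shock. Divergent promoters held 24 of 48 soma summits (50.0%), 3 of 42 shared summits (7.14%) and 2 of 23 germline summits (8.70%), and soma exceeded shared by 42.9 points (Fisher's exact test, adjusted exact p = 0.000143) and germline by 41.3 points (adjusted exact p = 0.00404). Upstream lay 44 of 48 soma summits (91.7%) and 24 of 42 shared ones (57.1%; difference 34.5 points, adjusted exact p = 0.00174). That second difference was 23.5 and 18.1 points, and no longer passed, when all summits were shifted by 100 bp to the left or right, a check on the genome build, which was not given in the sources used here. A soma excess over germline on the upstream side did not pass (22.1 points, adjusted exact p = 0.156). Between divergent 5' ends, where a summit is upstream of both, lay 23 of the 48 soma and 3 of the 42 shared summits. The upstream and divergent differences therefore overlap and are not separate results. The divergent soma summits are also not all separate units. They include both near-identical copies of the hsp-16.1 and hsp-16.48 pair, and 2 summits of the pair C47E8.4 and hsp-90. Of the 35 divergent heat shock summits of any class, 16 stood at the chaperone genes described below. At 20 °C divergent promoters held 31 of 76 shared (40.8%), 20 of 77 germline (26.0%) and 6 of 25 soma summits, and shared exceeded germline by 14.8 points without passing (adjusted exact p = 0.241).

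Distance separated the classes after heat shock in the same direction, as a description. The median distance was 169 bp for soma, 615.5 bp for shared, 573 bp for germline and 342 bp for unlisted summits, beside 277, 252, 323 and 253 bp at 20 °C. Within 300 bp upstream, the heat shock list held 33 soma, 3 shared, 2 germline and 6 unlisted summits. At 20 °C the same stretch held 14 soma, 33 shared, 31 germline and 4 unlisted summits. Beyond 500 bp lay 2 soma, 26 shared, 15 germline and 7 unlisted heat shock summits. By score the order of the classes was another, and after heat shock the shared summits were highest (622 to 257729, median 7547), followed by germline (156 to 10740, median 370), soma (40.8 to 55981, median 312) and unlisted (60.5 to 671, median 130). At 20 °C the medians were 902 for shared, 149 for germline, 113 for soma and 60.8 for unlisted summits.

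**Figure D4:**
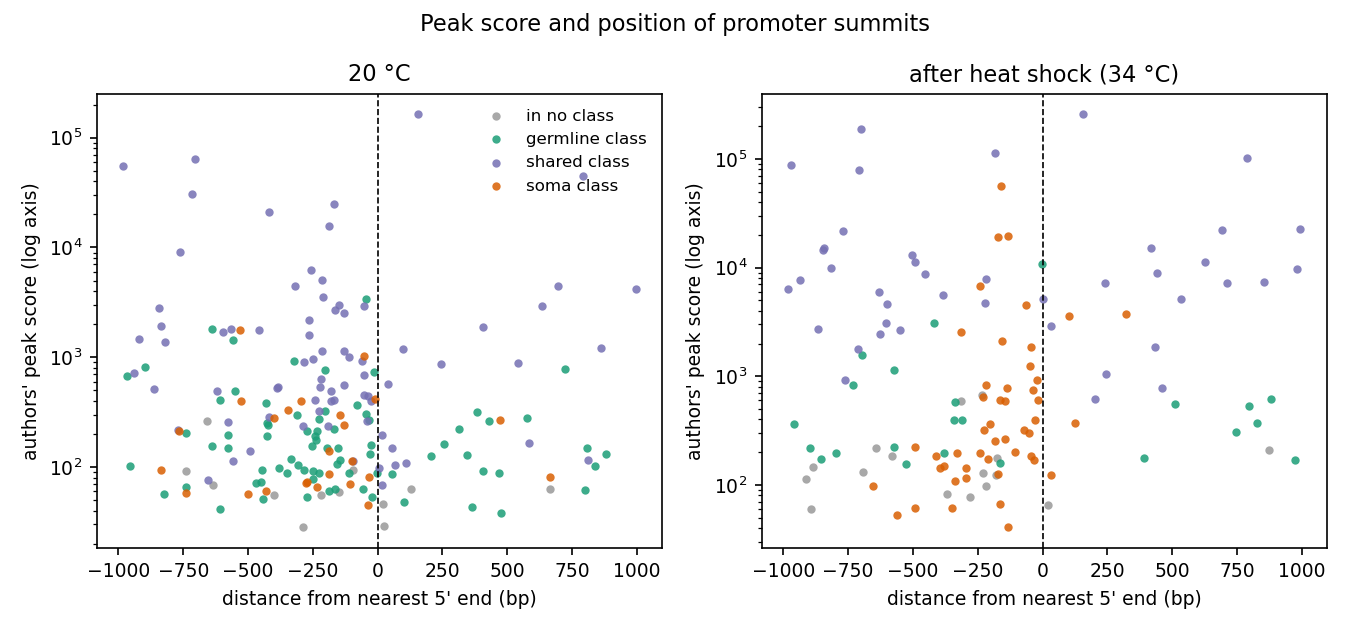
Peak score (log10 axis, unit as deposited) of each promoter summit against its signed distance to the nearest annotated 5' end in bp (negative is upstream), at 20 °C and after heat shock, with colours for the classes. After heat shock soma summits sit close to the 5' end while the highest scores belong to shared summits such as pck-2 (257729).

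The highest promoter scores stood at a small set of shared sites. The summit of pck-2, one of the worm's phosphoenolpyruvate carboxykinase genes of gluconeogenesis, was in the shared class at both temperatures. It lay at position 7869253 of chromosome I, 157 bp downstream of an inner annotated 5' end of the gene. Another annotated 5' end of pck-2 lay further upstream. The site of the collagen gene col-52 lay at -705 bp (position 4573492 of chromosome I) and had scores of 63656 at 20 °C and 188191 after heat shock. A pair of summits upstream of ZK1053.2, at -983 and -718 bp, scored 54946 and 30679 at 20 °C and 87876 and 78239 after heat shock. The main summit of C53C11.4 on chromosome X, at 793 bp, scored 45094 and 102203, and the one of ZC262.7, at -189 bp, scored 15675 and 112080. At vamp-8, a gene of vesicle fusion, the site at -762 bp scored 9015 and 21541. All of these stayed in the shared class, and the germline differential score exceeded the soma one at each of them at both temperatures. The site of the nuclear hormone receptor gene nhr-163, at 696 bp, scored 4435 and 22144 and was shared at both temperatures too. At R107.5 the site at -256 bp scored 6193 (shared) and, after heat shock, 6694 (soma).

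Chaperone and co-chaperone genes were bound at a higher share than protein-coding genes as a whole, and most of their sites were shared at 20 °C and soma after heat shock. Of 89 genes on the 7 lists of chaperones, 30 had a promoter summit at 20 °C and 26 after heat shock, against 1.27% and 0.806% of all protein-coding genes. The 20 °C sites were 26 summits, 20 of the shared class, 4 soma, 1 germline and 1 in no class, and 20 were divergent. After heat shock the 22 sites were 19 soma and 3 shared, with none in the germline class, and 16 were divergent. Of the kept chaperone sites 13 went from shared to soma, 3 stayed shared, 2 stayed soma, 1 went from germline to soma and 1 from no class to soma. The site lay upstream of the 5' end for 29 of the 30 bound genes at 20 °C and for all 26 after heat shock.

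HSP70 proteins bind exposed stretches of unfolded proteins, and 6 of the 11 genes of this list were bound at 20 °C and 7 after heat shock. The divergent pair F44E5.4 and F44E5.5, heat-inducible HSP70 genes whose 5' ends lie 351 bp apart, had a summit at position 11759480 of chromosome II, 169 bp upstream of the first and 182 bp upstream of the second. It scored 25068 at 20 °C in the shared class, with a soma differential score of 807 and a germline one of 75.4. After heat shock it scored 55981 and was of the soma class, with a soma differential score of 549. At the heat-inducible gene hsp-70 the 20 °C summit at -95 bp scored 93.3 and was in no class, and the heat shock summit at -35 bp scored 748 and was soma. The site of hsp-4, one of the genes for the endoplasmic reticulum chaperone BiP, appeared after heat shock only, at -73 bp with a score of 321 in the soma class.

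Constitutive members kept their class. The site of hsp-1, the constitutive cytosolic HSC70, lay at -421 bp with a score of 21244 at 20 °C and at -384 bp with 5629 after heat shock, in the shared class at both. At hsp-110, a nucleotide exchange factor for HSP70, the summit between it and rpn-3, a gene of the proteasome regulatory particle, scored 3542 and 7791 and stayed shared. Its soma differential score was 66.2 at 20 °C and 163 after heat shock, with germline values of 84.0 and 44.7. The mitochondrial HSP70 gene hsp-6 stayed in the soma class at both temperatures, at -297 bp with a score of 403 and at -306 bp with 143.

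Small heat shock proteins hold unfolding proteins in a form that can be refolded, and 7 of 17 genes were bound at 20 °C and 6 after heat shock. The hsp-16 genes sit in divergent pairs, and their copies are near-identical, so that reads can be split between them. The pair hsp-16.2 and hsp-16.41, whose 5' ends lie 221 bp apart, had a summit at position 1805124 of chromosome V, 167 bp upstream of hsp-16.2 and 54 bp upstream of hsp-16.41. It scored 455 at 20 °C (shared, soma differential score 19.8 and germline 24.3) and 4564 after heat shock (soma, 265). The names hsp-16.1 and hsp-16.48 each stand for 2 genes in the annotation, and the 2 copies of this divergent pair scored 2667 and 2541 at 20 °C and 19033 and 19557 after heat shock, and both went from shared to soma. These heat shock values share 1 differential score of 729, because both summits fall in the same tested region. The seventh gene, sip-1, counted through a 20 °C summit 738 bp downstream of its 5' end with a score of 165, which was also 583 bp downstream of the 5' end of urm-1, and it had no summit after heat shock.

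HSP90 and its co-chaperones complete the folding of kinases and receptors, and 5 of 10 genes were bound at each temperature. All 5 were shared at 20 °C and soma after heat shock. The gene hsp-90 shared its promoter with C47E8.4, with a summit at position 14685804 of chromosome V, 356 bp upstream of an annotated 5' end of hsp-90. It scored 4496 at 20 °C (shared, 81.0 for soma and 151.5 for germline) and 2535 after heat shock (soma, 56.5). A further summit, at position 14684884 with a score of 171, was found after heat shock only. It lay at -34 bp from another, outer annotated 5' end of hsp-90, so these offsets run from different 5' ends. The sites of the co-chaperones sti-1, which links HSP70 to HSP90, and ahsa-1, an activator of the HSP90 ATPase, scored 693 and 401 at 20 °C and 183 and 126 after heat shock. At fkb-6, an immunophilin, the scores were 495 and 252, and at sgt-1 258 and 53.2. 

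Other folding machines had fewer bound genes. J-domain proteins, which hand substrates to HSP70, had 3 of 29 genes bound at 20 °C and 2 after heat shock. The site of dnj-13 scored 5080 and 4711 and stayed shared, that of dnj-12 scored 2940 (shared) and 1230 (soma), and dnj-19 had a summit at 20 °C only, with a score of 446. Of the CCT chaperonin and prefoldin genes, which fold actin and tubulin, 5 of 14 were bound at 20 °C and 2 after heat shock. The genes cct-8 and cct-5 were soma after heat shock with scores of 172 and 108, cct-8 from the shared and cct-5 from the germline class. The sites of cct-3, cct-7 and pfd-1, with 20 °C scores of 410, 238 and 72.0, had no heat shock summit at a promoter. The mitochondrial pair hsp-60 and Y22D7AL.10 shared a summit that scored 2995 (shared) and 2095 (soma). Among BAG-domain genes, whose products release substrates from HSP70, bag-1 went from shared (score 564) to soma (262), and unc-23 was soma at both temperatures (1037 and 304 at -53 bp) and had an additional soma summit of 73.0 at 20 °C.

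**Figure D5:**
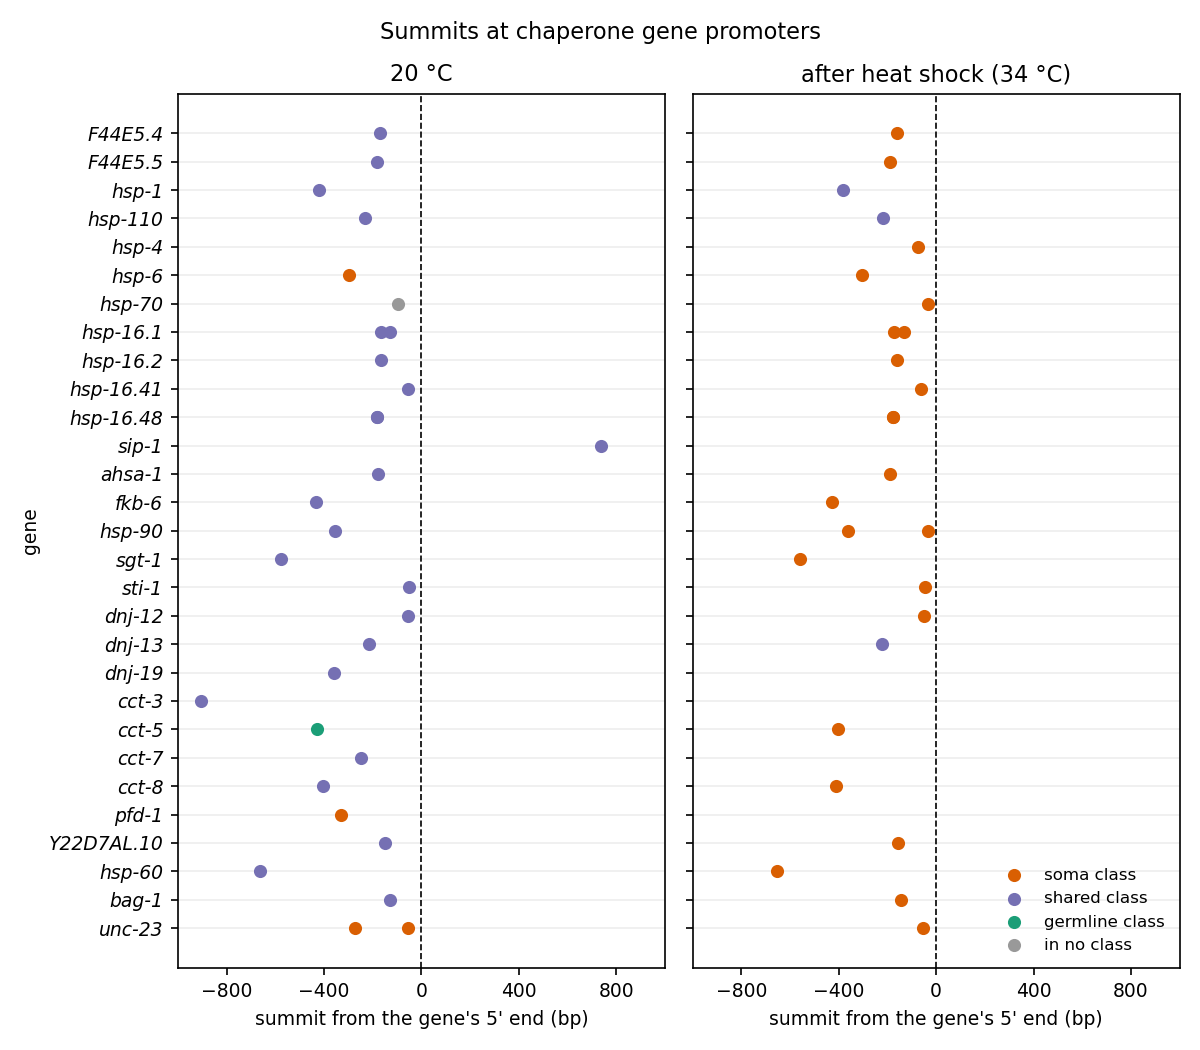
Signed distance in bp from the nearest annotated 5' end of each bound chaperone or co-chaperone gene to its promoter summit (negative is upstream), at 20 °C and after heat shock. Colours give the class. The rows of hsp-16.1 and hsp-16.48 each hold 2 genes of that name, all 26 genes bound after heat shock have their summits upstream, and colours change from mostly shared at 20 °C to mostly soma.

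Of the 4 genes listed as HSF-1 regulators, hsb-1, whose product binds HSF-1 and restrains it, was the bound one. Its summit, shared with let-99 on the other strand, scored 632 at 20 °C with differential scores of 14.9 for soma and 304 for germline, and 97.8 in no class after heat shock. Proteasome and ubiquitin genes had 3 of 35 bound at each temperature. The polyubiquitin gene ubq-1 had summits at -940 bp (shared, 723) and -100 bp (soma, 113) at 20 °C, and 1 in no class after heat shock, with a score of 114. At rpn-2, a scaffold of the proteasome regulatory particle, the summit scored 2182 (shared, germline differential score 762) and 671 in no class after heat shock. Chosen after their values were seen, the kept sites of uba-1, the ubiquitin-activating enzyme gene (322 germline, then 604 soma), and hip-1, which encodes an HSP70-interacting protein (267 germline, then 602 soma), joined the soma class after heat shock.

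Most lists of germline and protein synthesis genes had more bound members at 20 °C than after heat shock, as did all protein-coding genes (254 and 161, or 1.27% and 0.806%), and the difference was not tested. The germ granule and small RNA genes had 5 of 34 bound at 20 °C and 1 after heat shock. The Argonaute gene csr-1 scored 1603 at 20 °C (shared, with 29.8 for soma and 677 for germline), and was in no class after heat shock with a score of 129. The nuclear Argonaute gene hrde-1 shared the strongest 20 °C-only promoter site with C16C10.13, with a score of 929, and simr-1 (236) and the Vasa homologue glh-1 (150) were also bound at 20 °C only. Differential scores at hrde-1, simr-1 and glh-1 were higher for germline (265, 153 and 144) than for soma (23.0, 15.7 and 24.2). The germline RNA regulators mex-5 and pos-1, 2 of 38 genes, had 20 °C summits of the germline class, and mex-5 shared its summit with rec-8, the meiotic cohesin and the bound gene among 42 of meiosis.

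Histone genes had 7 of 83 bound at 20 °C, all in the germline class, and 4 after heat shock. Several of these genes share a summit, and the list held 4 summits at 20 °C and 2 after heat shock. The centromeric histone gene hcp-3 carried the second strongest germline promoter site at 20 °C, 638 bp upstream with a score of 1800, and had a score of 219 in no class after heat shock. The divergent genes his-6 and his-39, with his-5 close by, kept a germline site with scores of 149 and 1131, and as histone genes are near-identical copies their reads can be split. Of the kinetochore and spindle genes 2 of 48 were bound at both temperatures, hcp-3 and the kinesin gene klp-7, whose product takes apart microtubule ends and whose site went from germline (814) to no class (147). Ribosomal protein genes had 6 of 79 bound at 20 °C, 4 germline, and 2 after heat shock. The highest were rpl-31 (282), rpl-15 (277), rpl-3 (211) and rps-26 (195) at 20 °C. At rpl-15 the 20 °C summit (-414 bp) and the heat shock summit (-610 bp) were both soma. They lay over 100 bp apart and so count as different sites. Translation factors had 3 of 41 and 1. The site of icd-1, which encodes a subunit of the nascent polypeptide-associated complex, scored 538 (shared) and 150 (soma).

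The large gene families had shares between 0.256% and 1.55%, beside 1.27% at 20 °C and 0.806% after heat shock for all protein-coding genes. F-box genes had 2 of 322 bound at 20 °C (0.621%) and 5 after heat shock (1.55%), all in the germline class. The 5 genes rested on 4 summits, as fbxa-39 and fbxa-48 shared a summit. Scores reached 838 at fbxa-194 after heat shock. The chemoreceptor genes of the sr families, a list chosen after the values were seen, had 3 of 1171 bound at 20 °C (0.256%) and 8 after heat shock (0.683%). Of the 8 genes 6 were germline and 2 soma. They rested on 7 summits, as the soma genes srh-181 and srh-182 shared a summit. The strongest chemoreceptor gene by score, srw-10, scored 385 at 20 °C and 3059 after heat shock in the germline class. Nuclear hormone receptors had 3 of 269 (1.12%) and 2 (0.743%), and collagens 1 of 194 (0.515%) and 2 (1.03%). DNA replication and repair had 2 of 34 at 20 °C, splicing 1 of 33, the respiratory chain 1 of 46 and oxidative or osmotic stress 2 of 66, and none of these 4 lists had a bound gene after heat shock. For the E2F and cell cycle list it was 1 of 28 at both temperatures, lin-35, the Rb homologue. Vitellogenins (6 genes) and nuclear pore genes (38 genes) had none at either temperature.

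Sites seen at 1 temperature ended the list of named promoters. At 20 °C only, the next after hrde-1 were the shared promoter of cbd-1, an eggshell chitin-binding protein gene, and sec-31 (score 763, germline), that of nhr-47 and dnj-19 (446, shared), that of F54A3.6 and cct-3 (410, shared) and snpc-3.4 (371, germline). After heat shock only, Y71G12B.33 led with a score of 8821 (shared), followed by the muscle kinase gene unc-82 (1783, shared), scp-1, the homologue of the sterol sensor SCAP (929, soma), ubql-1, a ubiquilin gene (593, soma), and F55C9.6 (556, germline). The strongest soma promoter sites at 20 °C, which were soma after heat shock too, were F19B2.5 (1764, then 222), unc-23 and Y43F8B.2 (420, then 122). In the germline class at 20 °C they were Y54B9A.1 (3408), hcp-3 and Y53F4B.7 (1434), and after heat shock Y54B9A.1 (10740), srw-10 and arrd-16 (1553).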

How the data were processed

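HSF-1 was mapped by ChIP-seq in 16 libraries of the 40 samples, and the deposited files hold 2 lists of summits and 6 class sheets with no value per library, so that depth and the spread between replicates are unknown. Per the submitters' processing notes the tools include Bowtie2 and MACS2. Per the file headers the sheets give the authors' -log[pvalue] for signal loss on depletion, and the lists the authors' peak score; both are deposited scores, whose base or reference was not given in the sources used here. Repeated rows of 1 class sheet were counted once. All listed summits were found in the lists with equal scores.

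Summits were placed against Ensembl release 115 of WBcel235 (19985 protein-coding genes, 31865 transcripts). The genome build of the files was not given in the sources used here. Distances run from the summit to the nearest 5' end. Shares were compared with Fisher's exact test, kept sites with the exact McNemar test, and differences between temperatures with the exact test of equal odds ratios (added after the values were seen), all two-sided, with Benjamini-Hochberg adjustment over 12, 20, 4 or 6 tests and a threshold of 0.05. Summits are not replicate animals, and many sites stand in both lists. Of all summits, 350 of 500 at 20 °C and 350 of 441 after heat shock had a partner within 100 bp. Of the 219 distinct promoter sites, 100 had a promoter summit in both lists. Exact intervals are Clopper-Pearson at 95% and cover counting error only. The named genes are those of the 10 highest promoter scores at each temperature, the 3 highest per class, the 5 highest per kept, 20 °C-only or heat shock-only sites, all bound chaperone and regulator genes and up to 4 of each other list. Members and gene lists were chosen with earlier results of these data known. The labelled tissues could not be checked against marker genes in summit lists. Python 3.11.15, numpy 2.4.6, pandas 2.3.3, scipy 1.17.1 and matplotlib 3.10.9 were used, and the tests were tested on simulated data.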

Additional observations from a re-analysis of the deposited data

Results flagged for a closer look

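The gap between promoter summits and other summits differed between the temperatures for 4 measures, by the exact test of equal odds ratios adjusted over 6 measures. In the soma class the promoter excess was 26.0 percentage points larger after heat shock (6.06 and 32.1 points, adjusted exact p = 0.000501). In the shared class the gap changed by -22.8 points (-13.5 and -36.4 points, adjusted exact p = 0.00191). For summits in no class it was 8.69 points larger (-0.136 and 8.56 points, adjusted exact p = 0.0443). For summits with a partner at the other temperature the gap shrank from -28.0 to -1.51 points, a change of 26.5 points (adjusted exact p = 0.000501). The same pairs of summits give nearly the same counts at both temperatures, 100 and 101 at promoters and 250 and 249 elsewhere. This change thus rests on the list sizes, and the test cannot show more than the promoter shares do. The test was added after the values were seen, and sites found in both lists count in both gaps.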

How the results depend on the processing

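Over 226 alternatives to 44 results, 195 stayed on their side of the threshold (or, for shares, within their interval), 20 no longer passed, 4 newly passed, 6 moved and 1 reversed. Of those on the same side, 21 changed sign, all for results that had not passed, and 17 that passed moved by over 1.5 times (values in the report for class shares). The temperature differences that so moved were the soma one (54.5, 47.7 and 15.9 points within 250, 500 and 2000 bp) and the shared one (-42.1 within 250 bp). The share of promoter summits was 16.8% and 11.6% (20 °C, heat shock) within 250 bp, 26.8% and 17.9% within 500 bp and 54.4% and 47.8% within 2000 bp. The 20 °C soma excess no longer passed within 250 bp (4.44 points), 500 bp (5.51), 2000 bp (3.57), from the outermost 5' end of each gene (6.16) and among summits of the upper score range (1.57). The 20 °C shared deficit no longer passed within 250 bp (-3.80) and 2000 bp (-6.17), and reversed in the upper score range (0.204), where the 20 °C partner deficit was -0.501. The heat shock germline difference newly passed within 250 bp (-19.2) and 500 bp (-13.1), as did its difference between temperatures (-17.6 and -22.3). The heat shock excess in no class no longer passed within 250 bp (6.12), 500 bp (6.14) and in the upper score range (0), nor did its difference between temperatures within 250 bp (5.23), 500 bp (6.73), 2000 bp (6.43) and from the outermost 5' end (7.83). Among kept sites the gain of sites in no class no longer passed within 250 bp (5.13), and compared as unpaired lists the shared (-7.44) and no-class (6.09) changes did not pass. The heat shock upstream difference of soma and shared summits no longer passed with summits shifted left (23.5) or right (18.1). The upper score range and the narrower limits hold fewer summits, and other causes were not tested. With all summits shifted by 100 bp, 312 of the 319 members stayed in both directions. No paired analysis was possible because the files hold no value per library that could be paired by replicate (the McNemar test pairs sites), and for the same reason no replicate was left out. The planned motif search was not run.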
